A study of Homo sapiens with 6 samples.

Results

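The genes described here are 31 genes of cholesterol synthesis and of its control by the SREBP transcription factors. They were listed by name from their known roles, matched by symbol to the Ensembl identifiers of the deposited table, and all 31 had a row among its 26748 genes. All 31 also passed the filter on low values, which asked for 10 normalised counts on average and left 15598 genes to test. M14, an established human melanoma cell line, was sequenced as non-adherent melanospheres, that is, cells growing as floating clusters (3D, 3 libraries), and as conventional adherent cultures (2D, 3 libraries). The labels name no drug, genotype or time that differs between the groups. The sources used here do not give the medium or the age of either culture, so a difference in these cannot be told apart from the form of culture. Nothing in the labels tells whether the replicates of a culture were grown separately, so the p-values rest on library-to-library spread that may be technical. The comparison asks how the transcriptome of the spheres differs from that of adherent cells.

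Cells build cholesterol from acetyl-CoA through mevalonate, isoprenoid diphosphates, squalene and lanosterol, with a separate enzyme for almost every step. The SREBP proteins are made as membrane-bound precursors. While sterols are plentiful, INSIG proteins hold the SREBP escort SCAP in the endoplasmic reticulum; when sterols run low, SCAP carries the precursor to the Golgi, where the proteases encoded by MBTPS1 and MBTPS2 release the active factor. The active factor raises transcription of the synthesis enzymes and of INSIG1, so the pathway is known for moving as a block and for being set largely after its regulators have been transcribed.

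The libraries held between 16567763 and 19954987 reads assigned to genes. The 3D libraries correlated with each other at r = 0.966 to 0.987 over the log2 values of the genes tested, which are not independent replicates, and the 2D libraries at 0.943 to 0.984. 2D replicate 3 stood apart from the other 2D libraries (0.943 and 0.945, against 0.984 between replicates 1 and 2) and was nearer to the 3D libraries (0.928 to 0.935) than they were (0.877 to 0.891). The plot of log2 changes therefore shows every change with and without it. The 7 markers of melanocytes and melanoma summed to 972 to 1749.7 normalised counts in the 3D libraries and 1592 to 1858 in the 2D libraries. Of them, 1 rose (S100A1) and 2 fell (MITF and DCT), so the sums mix opposite moves. DCT averaged 0.62 in 3D and 70.0 in 2D. PMEL had 1215, 620 and 1377 in 3D and 323, 227 and 753 in 2D, but did not pass. MITF fell in 3D and was present in both cultures, but SOX10, MLANA and S100B, which define the lineage, had means of 0.323 to 8.26 normalised counts in 3D and 5.13 to 16.1 in 2D, too low to test. The 6 markers of leukocytes and macrophages, endothelium and epithelium summed to 319 to 321 normalised counts in the 3D libraries and 541 to 755 in the 2D libraries. Of these 6, 1 rose (PECAM1) and 2 fell (EPCAM and CDH1), while PTPRC and CD68, which define leukocytes and macrophages, had at most 4.27 and 6.19 normalised counts in any library. CDH5 did not pass, with 268 in 2D replicate 3 against 13.9 to 25.7 in the other libraries. Of the 2 neural crest-like markers, AXL fell and NGFR did not pass. AXL had 978, 1661 and 1005 in 3D, against 2954, 2705 and 2429 in 2D. The proliferation marker MKI67 fell (954, 669 and 702 in 3D, against 1743, 3134 and 3181 in 2D). The part of these shifts in the results below was not tested, and in bulk RNA fewer cells with a transcript and less transcript per cell cannot be told apart.

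The synthesis pathway rose almost throughout in the spheres. Of the 7 genes that control it, 5 did not pass the test, and neither did 11832 of the 15598 genes tested. Of the 18 enzymes, 16 were higher in 3D, with a median log2 change of 1.95 over the 18, and the other 2, PMVK and SC5D, did not pass. Of the other 13 genes, 3 were higher (INSIG1, STARD4 and TMEM97), 3 were lower (MBTPS2, SOAT1 and NPC1) and 7 did not pass, with a median of 0.15. In all, 19 of 31 were higher and 3 lower by limma with Benjamini-Hochberg adjusted p under 0.05, where the background over all 15598 genes was 12.5% higher and 11.6% lower (24.1% in either direction) with a median log2 change of -0.02. With libraries scaled to equal totals, that median was 0.11 and the calls over all genes were 2392 higher and 1253 lower, in place of 1950 and 1816, while 20 of the 31 were higher and 2 lower. A rise of at least 1 on the log2 scale, that is, a doubling, was called for 18 of the 31 against a background of 10.4%. All 3D libraries lay above all 2D libraries for 21 of the 31 genes (background 20.5%) and below them for 3 (background 22.6%). The calls were 20 higher and 3 lower without 2D replicate 3, and 22 higher and 3 lower with 3D replicate 2 left out as well, a choice made after seeing the data. With any other single library left out, between 15 and 18 were higher. The 3 falls rested more on single libraries: 1 was called without the first or the second 2D library, 2 without the second 3D library, and 0 without the first or the third 3D library.

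**Figure D1:**
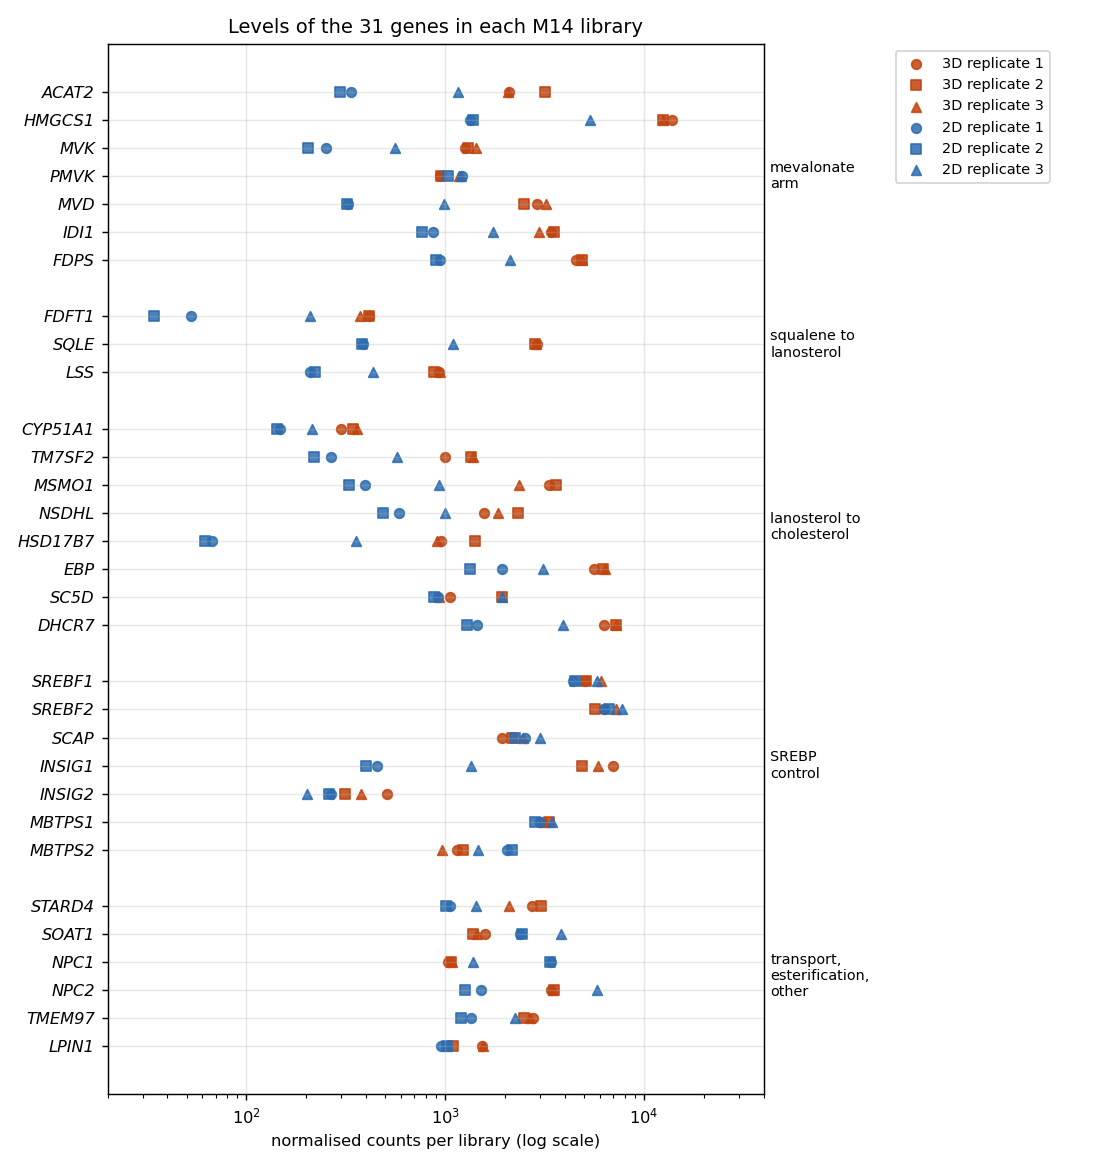
Normalised counts of the 31 genes (log axis) in the 3 3D libraries (orange) and the 3 2D libraries (blue), with the marker shape giving the replicate and genes grouped by step. For 16 of the 18 enzymes all 3D points lie to the right of all 2D points, with 2D replicate 3 (blue triangle) between them, whereas SREBF1, SREBF2, SCAP and MBTPS1 overlap. Among all genes tested, 20.5% had all 3D libraries above all 2D libraries.

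Promoter sequence was available for 28 of the 31 genes in a RefSeq table of 27305 genes (build GRCh38.p14), as windows of 250 bases before to 50 bases after each annotated start. The 3 genes without a sequence, ACAT2, FDFT1 and SQLE, were all higher in 3D and are missing from the motif counts. SREBP binds sterol regulatory elements and is known to act with NF-Y, which binds CCAAT. The motif TCACNCCA, a short form of the sterol regulatory element, and CCAAT were searched on both strands, and a gene with several starts counted once if any window held the motif. TCACNCCA can run into CCAAT by sharing the letters CCA, which happened in none of the windows printed here. CCAAT was in the windows of 15 of the 16 genes that were higher in 3D and have a sequence, CYP51A1 being the exception, and in 4 of the 12 others. By comparison, 42.3% of all tested genes with a sequence held CCAAT, as did 40.1% of those higher and 42.0% of those lower in 3D. TCACNCCA was less frequent, in 3 of the 28 genes (MVK, MSMO1 and SREBF2) against 4.57% of tested genes. Such matches describe the letters in these windows only, and a window without a match says nothing about binding.

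The 250 bases before the start are printed 5′ to 3′ on the strand of the gene for MSMO1 and MVK, the genes past the threshold that held TCACNCCA, and for SREBF2 and PMVK, which were chosen after their values were seen. SREBF2 held TCACNCCA but its transcript did not pass the test, and PMVK, the enzyme that follows MVK, held neither motif and did not pass the test either. Capitals mark TCACNCCA and CCAAT, and ATTGG where CCAAT is on the other strand.
MSMO1 (chr4:165327419-165327668, plus strand): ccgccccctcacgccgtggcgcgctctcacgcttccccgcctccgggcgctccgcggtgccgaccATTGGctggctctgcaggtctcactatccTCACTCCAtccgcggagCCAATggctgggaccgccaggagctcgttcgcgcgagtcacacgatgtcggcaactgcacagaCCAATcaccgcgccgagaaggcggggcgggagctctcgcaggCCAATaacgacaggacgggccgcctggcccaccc
MVK (chr12:109573544-109573793, plus strand): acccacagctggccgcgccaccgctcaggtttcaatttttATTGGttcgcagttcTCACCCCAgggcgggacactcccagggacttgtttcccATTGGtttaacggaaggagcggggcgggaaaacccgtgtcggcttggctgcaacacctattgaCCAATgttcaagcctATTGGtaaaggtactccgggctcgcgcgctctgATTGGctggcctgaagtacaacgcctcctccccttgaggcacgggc
SREBF2 (chr22:41832855-41833104, plus strand): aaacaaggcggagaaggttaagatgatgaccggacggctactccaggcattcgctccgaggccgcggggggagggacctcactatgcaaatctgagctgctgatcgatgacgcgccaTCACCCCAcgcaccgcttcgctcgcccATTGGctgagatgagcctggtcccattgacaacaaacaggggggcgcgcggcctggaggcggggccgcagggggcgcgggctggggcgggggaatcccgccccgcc
PMVK (chr1:154936720-154936969, minus strand): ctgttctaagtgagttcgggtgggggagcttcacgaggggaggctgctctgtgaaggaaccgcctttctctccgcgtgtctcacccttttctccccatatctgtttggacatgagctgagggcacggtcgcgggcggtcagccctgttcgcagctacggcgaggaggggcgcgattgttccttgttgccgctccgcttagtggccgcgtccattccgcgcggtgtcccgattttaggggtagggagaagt
In this stretch MSMO1 held 1 TCACNCCA and 4 CCAAT, MVK 1 and 5, SREBF2 1 and 1, and PMVK 0 and 0.

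The mevalonate arm turns acetyl-CoA into farnesyl diphosphate, and 6 of its 7 genes were higher in 3D, with a median log2 change of 2.11. The shares over all genes tested were 12.5% higher and 11.6% lower. HMGCS1 (ENSG00000112972, chromosome 5, 43289395 to 43313512, GRCh38), which condenses acetoacetyl-CoA and acetyl-CoA to HMG-CoA, had 13879, 12491 and 12521 normalised counts in 3D replicates 1 to 3, against 1335, 1388 and 5327 in 2D replicates 1 to 3. The 3D libraries were close to each other, and the 2D library nearest to them, replicate 3, held 3.91 times the mean of the other 2D libraries. HMGCS1 rose by 2.59 on the log2 scale (SE 0.47, adjusted p = 0.00771) and 3.25 without 2D replicate 3. MVD, the decarboxylase that makes isopentenyl diphosphate, had 2889, 2504 and 3219.6 in 3D and 326, 319 and 990.0 in 2D (log2 change 2.60, SE 0.40, adjusted p = 0.00413). Here too even the highest 2D library, replicate 3, was below the lowest 3D library. MVK, mevalonate kinase, had 1260.0, 1309 and 1420.4 in 3D and 252, 204 and 558 in 2D, a log2 change of 2.11 (SE 0.34).

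IDI1, the isomerase of isopentenyl diphosphate, had 3408, 3525 and 2948 normalised counts in 3D, against 865, 762 and 1738 in 2D, and its log2 change of 1.65 was the smallest of the 6. FDPS, which joins the isoprenoid units to farnesyl diphosphate, had 4573, 4894 and 4874 in 3D and 944, 899.9 and 2113 in 2D (log2 change 1.97, SE 0.31, adjusted p = 0.00438). Its 3D libraries agree within a log2 range of 0.10, while its 2D libraries span 1.23. ACAT2, the cytosolic thiolase at the start of the arm, had 2103, 3183 and 2067 in 3D and 335, 296 and 1159 in 2D (log2 change 2.30, SE 0.47, adjusted p = 0.0117; 2.93 without 2D replicate 3). This value is uncertain: 52.3% of the exon bases of ACAT2 in GENCODE 29 also belong to another gene, chiefly SOD2-OT1 on the other strand, and the library kit does not mark the strand.

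PMVK, phosphomevalonate kinase, was the exception in this arm. It had 938, 957 and 1171 normalised counts in 3D, against 1214, 1031 and 1205 in 2D, and the cultures overlapped. Its log2 change was -0.17 with a 95% interval of -0.56 to 0.22, which leaves out rises of the size of its neighbours MVK and MVD (adjusted p = 0.478). Divided by exon length, PMVK had a level of 798 normalised counts per kilobase in 3D and was 7th of the 18 enzymes, after HMGCS1 (2757), EBP (2514), DHCR7 (1665), FDPS (1286), MSMO1 (1071) and NSDHL (958). In 2D it had 899 per kilobase, the highest level of the 18, next to EBP with 878. Exon length counts every exon annotated for a gene in any transcript, so ranks per kilobase here and below depend on the annotation. In 3D both NSDHL (782 to 1167) and MSMO1 (812 to 1245) overlapped with PMVK (733 to 915), and in 2D PMVK (806 to 949) and EBP (552 to 1286) were not separated beyond their spread.

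All 3 genes from farnesyl diphosphate to lanosterol were higher in 3D, against 12.5% of all genes tested. SQLE (ENSG00000104549, chromosome 8, 124998497 to 125022283), squalene epoxidase, which adds oxygen to squalene, had 2886, 2821 and 2853 normalised counts in 3D, against 386, 381 and 1099 in 2D (log2 change 2.39, SE 0.37, adjusted p = 0.00444). Its 3D libraries had the smallest spread of the 19 genes that rose, a log2 range of 0.03. LSS, which closes the ring to lanosterol, had 926, 881 and 938 in 3D and 209.7, 222 and 432 in 2D (log2 change 1.75, SE 0.28). FDFT1, squalene synthase, had 415, 413 and 372 in 3D and 52.4, 34.2 and 209 in 2D. Every 3D library was above every 2D library, but 2D replicate 3 held 4.82 times the mean of the other 2D libraries. FDFT1 rose by 2.45 on the log2 scale (SE 0.57, adjusted p = 0.0184) and 3.21 without 2D replicate 3. Leaving out any other library lost the call (adjusted p between 4.58e-05 and 0.069 in these 6 fits). Per kilobase FDFT1 was the lowest of the 18 enzymes in both cultures, with 76.8 in 3D and 18.9 in 2D.

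From lanosterol to cholesterol, 7 of 8 genes were higher in 3D, against 12.5% of all genes tested. The median log2 change of the 8 was 1.72. HSD17B7 (ENSG00000132196, chromosome 1, 162790702 to 162812817) is a ketoreductase in the removal of methyl groups from lanosterol. It had 953, 1410.5 and 907 normalised counts in 3D, against 66.7, 61.9 and 357 in 2D. On the log2 scale no enzyme had a wider gap between 3D and 2D replicates 1 and 2, and 2D replicate 3 held 5.55 times the mean of those libraries. HSD17B7 rose by 3.22 on the log2 scale (SE 0.60, adjusted p = 0.00839), and 4.03 without 2D replicate 3; 7.77% of its sequence windows of 75 bases also occur in other genes, chiefly the pseudogene HSD17B7P2. MSMO1 is the methyl sterol oxidase that acts ahead of HSD17B7 in this removal. It had 3340.2, 3599 and 2348 in 3D and 393, 327 and 929 in 2D (log2 change 2.63, SE 0.37, adjusted p = 0.00296). NSDHL, the dehydrogenase between them, had 1561, 2329 and 1847 in 3D and 585, 489 and 994 in 2D, a log2 change of 1.52. These 3 enzymes therefore all rose, by different amounts, and differences between them were not tested.

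TM7SF2, a sterol reductase that also belongs to the family of the lamin B receptor, had 1000.2, 1343 and 1387 normalised counts in 3D and 265, 219.9 and 569.5 in 2D, a log2 change of 1.93 (SE 0.34). EBP, the sterol isomerase, had 5583, 6187 and 6401 in 3D and 1920.4, 1329 and 3099 in 2D, a log2 change of 1.60 (SE 0.28). DHCR7, the reductase that yields cholesterol, had 6279.5, 7259 and 7245 in 3D and 1441, 1292 and 3897 in 2D (log2 change 1.84, SE 0.38, adjusted p = 0.0117). For each of these genes the 3D libraries lay above all 2D libraries, and DHCR7 alone of the 3 missed the threshold in a fit with a library left out, that without 3D replicate 3 (adjusted p between 2.30e-05 and 0.0558). CYP51A1, the lanosterol demethylase of the cytochrome P450 family, had the smallest rise of the enzymes, with 299, 343 and 361 in 3D and 147, 143 and 213 in 2D (log2 change 1.01, SE 0.24, adjusted p = 0.0183). It is uncertain, since 83.2% of its exon bases are shared with an overlapping gene, and of the fits with a library left out it was called in those lacking 2D replicate 3 or 3D replicate 2 (adjusted p between 0.00148 and 0.0863 over all 6).

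SC5D, the sterol desaturase whose product DHCR7 uses, did not pass. It had 1060.5, 1923 and 933 normalised counts in 3D, against 919, 873 and 1921 in 2D. Here 3D replicate 2 and 2D replicate 3 were the high libraries, at nearly the same level, and the cultures overlapped. Its log2 change was 0.10 (95% interval -0.73 to 0.93, adjusted p = 0.858), so a rise such as that of DHCR7 lies outside this interval; its sign depended on which library was left out (-0.22 to 0.47).

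**Figure D2:**
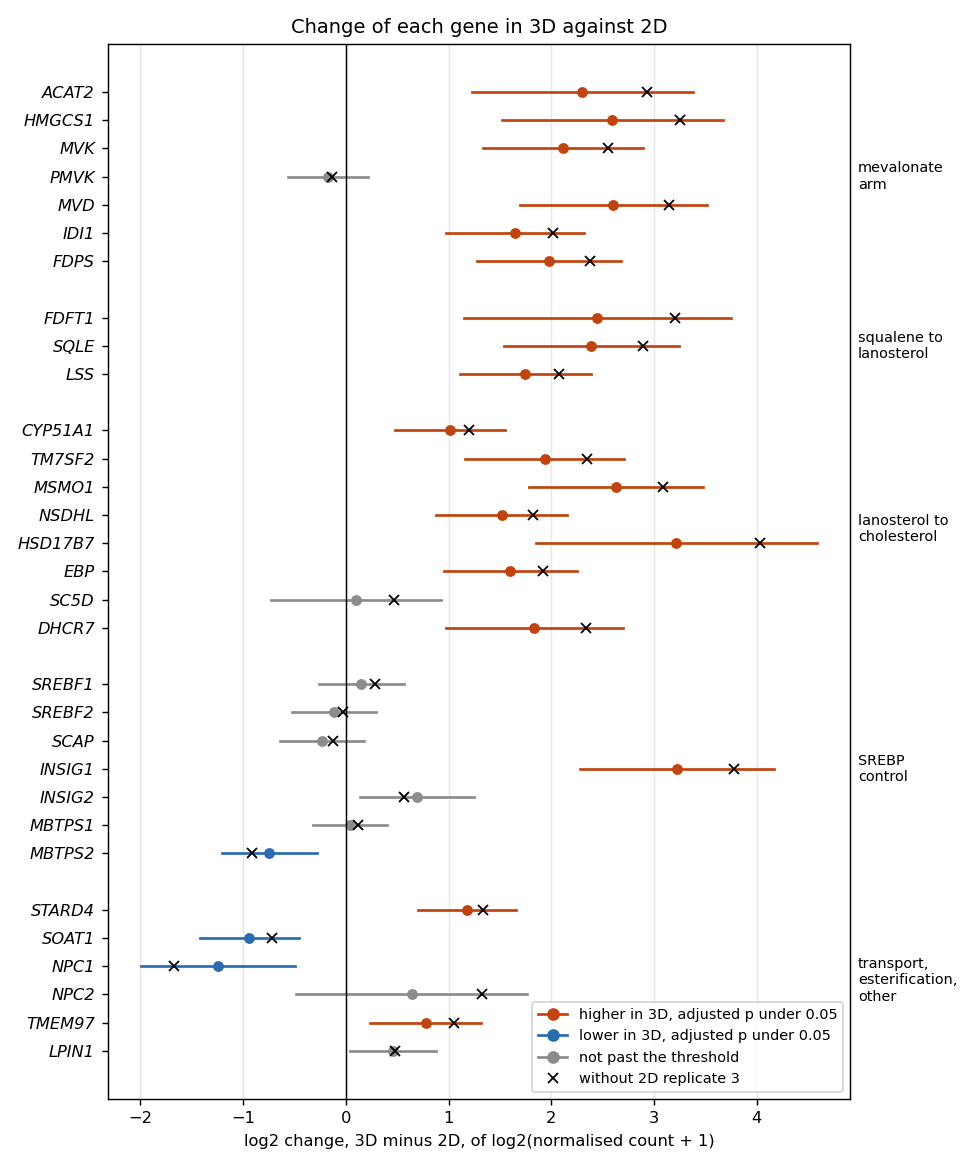
Log2 change of each gene in 3D against 2D (points, x axis) with its 95% interval from limma, by step; orange is higher and blue lower in 3D at an adjusted p under 0.05, grey did not pass, and crosses give the change without 2D replicate 3. The intervals of all enzymes but PMVK and SC5D lie right of 0, with points from CYP51A1 at 1.01 to HSD17B7 at 3.22, and for the 16 that rose the cross lies further right than the point.

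Among the genes that control SREBP, 1 of 7 was higher and 1 lower in 3D, with a median log2 change of 0.04. These counts are near the shares over all genes tested, 12.5% higher and 11.6% lower. INSIG1 (ENSG00000186480, chromosome 7, 155297776 to 155310235), itself a target of SREBP, had 6969, 4899 and 5885 normalised counts in 3D, against 454, 401 and 1347 in 2D. Its log2 change of 3.22 (SE 0.42, adjusted p = 0.00201) ranked 204th of the 15598 tested, close to that of HSD17B7 (3.22). Without 2D replicate 3 it was 3.78, below the 4.03 of HSD17B7. INSIG2, its paralogue, had 509, 312 and 376 in 3D and 267, 259 and 203 in 2D. All 3D libraries were above all 2D libraries, and 2D replicate 3 was the lowest of the 6 rather than intermediate, but the gene did not pass (log2 change 0.69, 95% interval 0.14 to 1.25, adjusted p = 0.068). It did pass with libraries scaled to equal totals (adjusted p = 0.0432) and in DESeq2, and with a library left out its adjusted p lay between 0.0511 and 0.251.

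Within each library the log2 ratio of INSIG1 to INSIG2 was 3.77, 3.97 and 3.97 in 3D, against 0.76, 0.63 and 2.73 in 2D. It averaged 3.90 ± 0.11 in 3D and 1.37 ± 1.17 in 2D (SD, n = 3 each; exact permutation test, two-sided, p = 0.1, the smallest p that 3 libraries against 3 allow). Being a ratio of counts from genes of different length, it compares libraries and not the levels of the paralogues.

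The transcripts of the SREBP factors themselves overlapped between the cultures. SREBF2 (ENSG00000198911, chromosome 22, 41833079 to 41907308), which encodes the factor best known for cholesterol genes, had 6296, 5647 and 7222 normalised counts in 3D, against 6263, 6693 and 7746 in 2D (log2 change -0.11, 95% interval -0.52 to 0.29, adjusted p = 0.669; 0.02 with libraries scaled to equal totals). SREBF1, which encodes forms best known for fatty acid genes, had 5033, 5130.0 and 6058 in 3D and 4382, 4482 and 5823 in 2D (log2 change 0.15, 95% interval -0.27 to 0.57, adjusted p = 0.571). In both genes the highest or second highest value belonged to 2D replicate 3. These intervals leave out a doubling in either direction; the counts are per gene, and isoforms of SREBF1 are not separated. The log2 ratio of SREBF2 to SREBF1 was 0.32, 0.14 and 0.25 in 3D, against 0.52, 0.58 and 0.41 in 2D. It averaged 0.24 ± 0.093 in 3D and 0.50 ± 0.084 in 2D (SD, n = 3 each; exact permutation test, two-sided, p = 0.1, the smallest possible), so the ratio was lower in every 3D library although neither gene passed alone.

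SCAP, the escort, had 1929, 2179 and 2467 normalised counts in 3D and 2526, 2234 and 3001 in 2D, a log2 change of -0.24 (95% interval -0.65 to 0.17, adjusted p = 0.359). MBTPS1, the protease that makes the opening cut, had 3003, 3331 and 3181 in 3D and 2995, 2843 and 3441 in 2D, with the tightest interval of the 31 genes (-0.32 to 0.40 around 0.04, adjusted p = 0.873). Both overlapped between the cultures. MBTPS2, the protease that makes the releasing cut, was lower, with 1151, 1235 and 967 in 3D, against 2041, 2167 and 1462 in 2D (log2 change -0.74, SE 0.20, adjusted p = 0.0311). Every 3D library was below every 2D library, with 2D replicate 3 nearest to 3D. The call was lost with libraries scaled to equal totals (log2 change -0.61, adjusted p = 0.0592) and, among the fits with a library left out, held in those lacking 2D replicate 3 or 3D replicate 2 and no other (adjusted p between 0.00199 and 0.126). In addition, 13.4% of its exon bases also belong to other genes, chiefly YY2.

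Of the 6 genes of sterol transport, storage and related targets, 2 were higher and 2 lower in 3D. Over all genes tested, 12.5% were higher and 11.6% lower. STARD4, a cytosolic sterol carrier, had 2743, 3045 and 2097 normalised counts in 3D, against 1052, 1009.9 and 1421 in 2D (log2 change 1.18, SE 0.21, adjusted p = 0.00705). TMEM97, an endoplasmic reticulum protein that binds NPC1, had 2762, 2494 and 2679.8 in 3D and 1355, 1204 and 2250.4 in 2D (log2 change 0.78, SE 0.24, adjusted p = 0.0459). Its 3D libraries were above all 2D libraries, 2D replicate 3 only just, and leaving out any library but that one lost the call (adjusted p between 0.000625 and 0.154). LPIN1, a phosphatidate phosphatase, had 1523, 1095 and 1555 in 3D and 957, 1023 and 1018 in 2D. Its cultures did not overlap, 3D replicate 2 lying just above the 2D libraries, but it did not pass (log2 change 0.46, adjusted p = 0.0997; called without 3D replicate 2, with adjusted p between 0.0371 and 0.295 over the 6 fits).

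NPC1 (ENSG00000141458, chromosome 18, 23506184 to 23586898), the membrane protein that exports cholesterol from lysosomes, was lower in 3D, with 1035, 1072 and 1082 normalised counts, against 3413, 3384 and 1376 in 2D. Its 3D libraries were nearly equal, and 2D replicate 3 lay close to them, far from the other 2D libraries. NPC1 fell with a log2 change of -1.24 (SE 0.33, adjusted p = 0.0293) and -1.68 without 2D replicate 3, and it missed the threshold with any other library left out (adjusted p between 5.26e-05 and 0.106). NPC2, the soluble lysosomal protein that hands cholesterol to NPC1, did not pass. It had 3411, 3539 and 3495 in 3D, against 1522, 1259.7 and 5821 in 2D, so that 2D replicate 3 was above every 3D library and the other 2D libraries below them. Its log2 change was 0.64 (95% interval -0.49 to 1.77, adjusted p = 0.364), and 1.33 without 2D replicate 3, where it was called (adjusted p = 0.000223, in a range of 0.000223 to 0.784 over the 6 fits). SOAT1, which esterifies cholesterol for storage, had 1579, 1383 and 1447 in 3D and 2388, 2447 and 3824 in 2D (log2 change -0.94, SE 0.21, adjusted p = 0.0164). All 3D libraries were below all 2D libraries, and 2D replicate 3 was here the library farthest from 3D; it missed the threshold with the first or the third 3D library left out (adjusted p between 0.00346 and 0.0712).

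**Figure D3:**
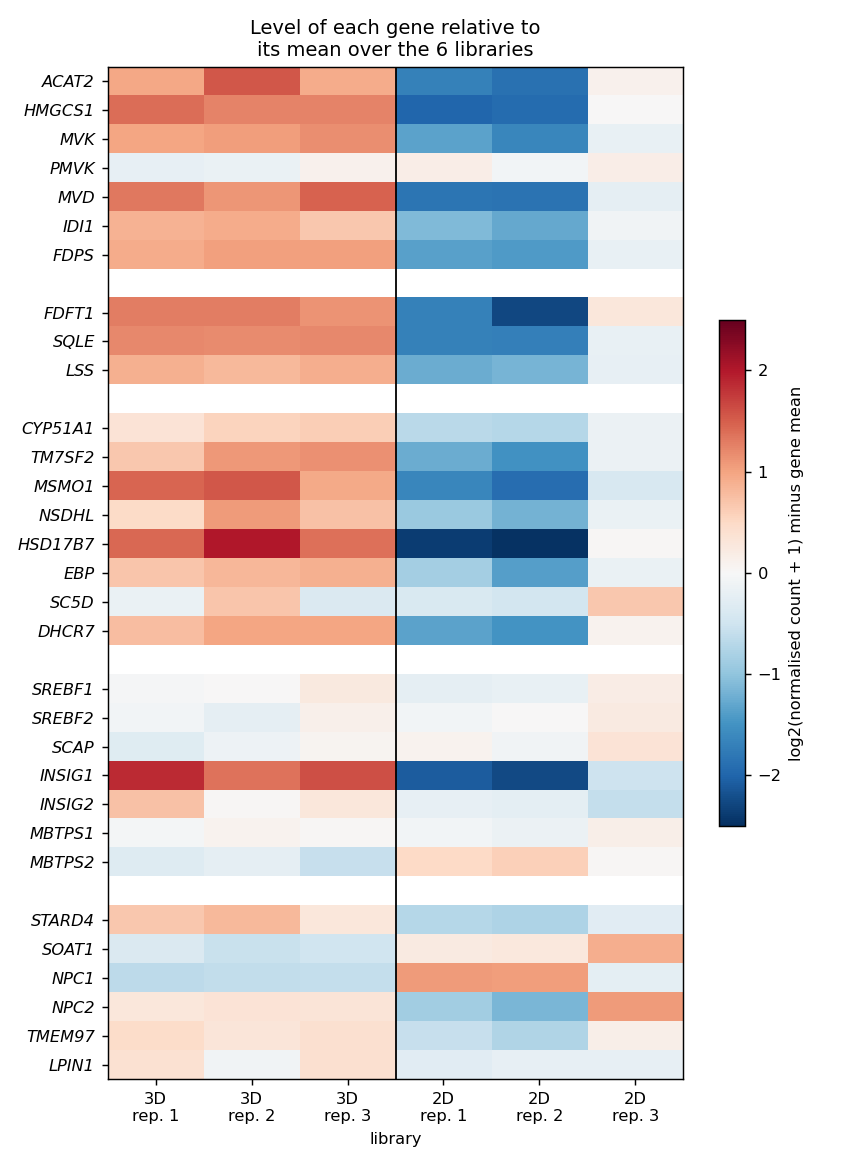
Log2(normalised count + 1) of each gene minus its mean over the 6 libraries (colour; red above, blue below), with 3D libraries in the left 3 columns and 2D libraries in the right 3. For the 16 enzymes that rose, 2D replicate 3 is paler and lies between red 3D and blue 2D replicates 1 and 2, which is not so for PMVK and SC5D, while NPC2 and SOAT1 are reddest in 2D replicate 3.

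For the 19 genes that were higher in 3D, 2D replicate 3 lay between the other 2D libraries and the 3D libraries. On the log2 scale, with the mean of 2D replicates 1 and 2 set at 0% and the mean of the 3D libraries at 100%, 2D replicate 3 lay at 34.7% (STARD4) to 77.9% (TMEM97), with a median of 51.4%. It was on the 3D side of the other 2D libraries for 19 of 19, compared with 1509 of all 1950 genes higher in 3D, whose median was 30.8%. The rule that these genes be called shapes this comparison, and it is a description. Across all 31 genes, 2D replicate 3 was the highest 2D library for 26. It was above every 3D library for 8. The same counts were not made over all genes, so they do not set these 31 apart. The median log2 range of these 19 genes over the 3 libraries was 0.26 within 3D and 1.45 within 2D. The 2D value rests on replicate 3: between 2D replicates 1 and 2 alone, the median log2 difference was 0.17 and the highest 0.60. Within 3D the largest ranges were those of HSD17B7 and ACAT2, both highest in replicate 2, and of MSMO1, lowest in replicate 3.

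Added up, the 31 genes took a larger share of the reads assigned to genes in 3D. Their reads made up 0.553%, 0.548% and 0.540% of all reads in 3D replicates 1 to 3, against 0.217%, 0.220% and 0.357% in 2D replicates 1 to 3. The 95% Wilson interval, which covers counting error only, was 0.536% to 0.543% for the lowest 3D library (replicate 3) and 0.355% to 0.360% for the highest 2D library (replicate 3). The mean was 0.547% ± 0.00643 in 3D and 0.265% ± 0.0803 in 2D (SD, n = 3 each; exact permutation test, two-sided, p = 0.1, the smallest possible). The 18 enzymes alone took 0.326% ± 0.0124 in 3D and 0.0881% ± 0.0504 in 2D (SD, n = 3 each; exact permutation test, p = 0.1).

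**Figure D4:**
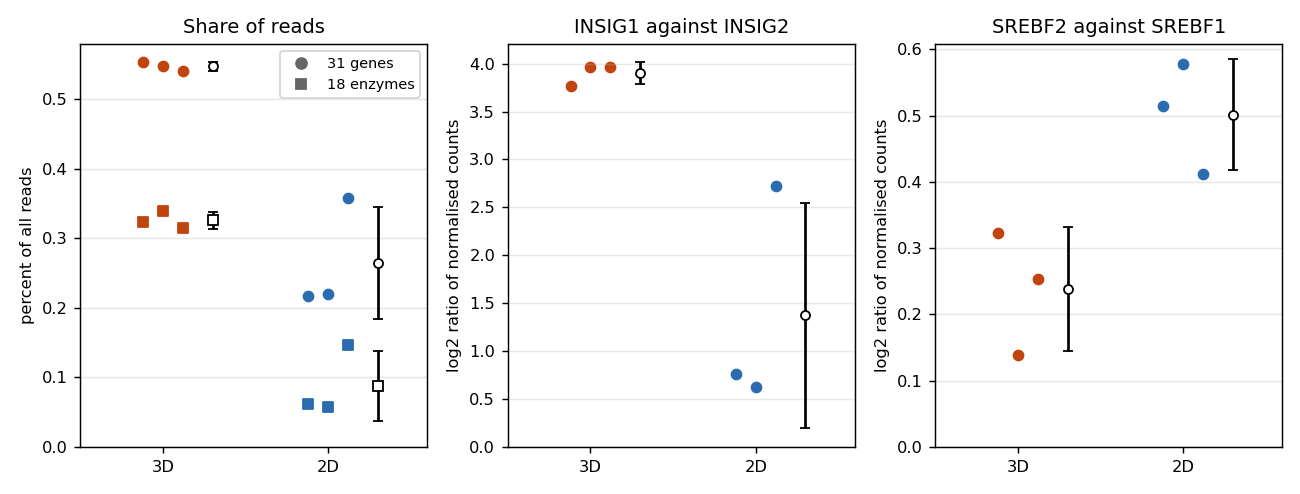
Share of all reads taken by the 31 genes (circles) and the 18 enzymes (squares), and log2 ratios of INSIG1 to INSIG2 and of SREBF2 to SREBF1, in each 3D library (orange) and 2D library (blue); open symbols are means with SD, n = 3. Shares and the INSIG ratio are higher and the SREBF ratio lower in every 3D library, and 2D replicate 3 is the 2D library nearest to 3D in each panel.

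Genes on neighbouring routes are given for comparison, beside the background over all genes of 12.5% higher and 11.6% lower, and nothing is read from their counts. Of 16 genes of the isoprenoid branches, which use farnesyl diphosphate for prenylation, dolichol and ubiquinone, 1 was higher and 2 lower, with a median log2 change of -0.41. SRD5A3, the polyprenol reductase of dolichol synthesis, had 203, 206 and 222 normalised counts in 3D, against 595, 488 and 340.3 in 2D (log2 change -1.13, adjusted p = 0.0136). The other genes past the threshold, GGPS1 (log2 change 0.86) and FNTB (-0.91), are uncertain: TBCE shares 41.0% of the exon bases of GGPS1, and a readthrough gene shares 42.1% of those of FNTB. Of 10 other genes of sterol sensing and SREBP control, 1 was higher and 2 lower (median -0.50). ERLIN1 and ERLIN2, partner proteins of the endoplasmic reticulum that bind the SREBP complex, were both lower. ERLIN1 had 2296, 2506 and 2565 in 3D and 7165, 6366 and 4369 in 2D (log2 change -1.25, adjusted p = 0.00558, called in all 6 fits with a library left out). ERLIN2 had 569, 702 and 538 in 3D and 1265, 1149 and 892 in 2D (log2 change -0.86, adjusted p = 0.0179). UBE2G2, a ubiquitin-conjugating enzyme of protein degradation from the endoplasmic reticulum, was higher, with 3736, 2362 and 3907 in 3D and 1401, 1497 and 1709.7 in 2D (log2 change 1.09, adjusted p = 0.0113). With a library left out, SRD5A3 and ERLIN2 were each called in 2 of 6 fits and UBE2G2 in 4 of 6.

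Further lists covered genes that sense, modify or carry sterol, to be read against the same background of 12.5% higher and 11.6% lower. Of 8 genes of the sterol receptor LXR and of efflux, 1 was higher and 7 did not pass, with a median log2 change of -0.12. NR1H3, which encodes LXR-alpha, had 1879.8, 1704 and 2111 normalised counts in 3D, against 1310.5, 1011 and 1012 in 2D (log2 change 0.78, adjusted p = 0.0176; called in 3 of 6 fits that each leave out 1 library). Of 6 genes listed for oxysterol synthesis, 4 had a row and 2 were high enough to test. CYP39A1, an oxysterol hydroxylase, was higher at a low level, with 32.5, 46.5 and 38.2 in 3D and 8.58, 3.20 and 5.14 in 2D (log2 change 2.66, adjusted p = 0.00694). Of 12 further genes of sterol transport that were tested, 2 were higher and 1 lower (median 0.32). GRAMD1B, which moves cholesterol from the plasma membrane to the endoplasmic reticulum, had 5713, 4958 and 6470.2 in 3D and 1716, 1888 and 3887 in 2D (log2 change 1.29, adjusted p = 0.019). NCEH1, a cholesteryl ester hydrolase, had 521, 776 and 547 in 3D and 1046, 1014 and 1250.1 in 2D (log2 change -0.86, adjusted p = 0.0202). Each was called in 2 of these 6 fits. STARD5 also passed but is uncertain, since 68.6% of its exon bases are shared with other genes, chiefly IL16.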

How the data were processed

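Poly(A) RNA of M14 cells was sequenced on an Illumina NovaSeq from TruSeq v2 libraries, per the labels' protocols. The submitters' processing notes name HISAT2, featureCounts 1.5.0, DESeq2 and GRCh38; the sources used here do not give other versions or the annotation. Per gene, the deposited signal is a read count that the authors divided by 1 size factor per library. This was read from the values, of which 100% are multiples of the value of 1 read, to within 0.01 read. The 6 empty columns were not used.

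Genes with a mean of at least 10 were tested with limma 3.58.1 (R 4.3.3; lmFit, eBayes with a trend) on log2(value + 1), culture as the only term, 3D minus 2D, two-sided, with Benjamini-Hochberg adjustment over 15598 genes at 0.05. Fold changes on this scale understate changes of low genes. Single values per library were compared by exact permutation tests (scipy 1.17.1). Alternatives were edgeR 4.0.16 (quasi-likelihood) and DESeq2 1.42.0 on the recovered reads, other pseudocounts (0.1, 10) and filters (none, mean 50), other scalings (TMM factors, equal totals), robust eBayes, a replicate block, and each library left out. edgeR called 1944 genes higher and 1713 lower.

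Symbols were found for 26506 of 26748 genes. Locations, exon overlap and shared 75-base windows came from GENCODE 29 (GRCh38); reads in bases shared by genes may be lost or split in counting. Promoters came from RefSeq (GRCh38.p14). All 31 genes are named. Of the 5 neighbouring lists, at most 4 genes past the threshold were to be named. Genes and lists were chosen with earlier results of these data known. The limma workflow was tested on simulated counts with known changes.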

Additional observations from a re-analysis of the deposited data

How the results depend on the processing

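Pseudocounts, filters, TMM factors, robust eBayes, edgeR and the replicate block changed neither direction nor call for any of the 31 genes. With equal library totals, under which the median log2 change over the whole table was 0.11, INSIG2 was called higher (2 control genes higher), MBTPS2 was lost (0 lower) and SREBF2 turned to 0.019; over all genes the calls were 2392 higher and 1253 lower, against 1950 and 1816. DESeq2 also called INSIG2 (2 control genes higher). Leaving out 2D replicate 3 together with 3D replicate 2, an alternative added after seeing the data, 2 control genes and 4 transport genes were higher, SREBF2 turned to 0.059, and 4436 genes were higher and 4605 lower. With a library left out, the log2 change of SC5D ran from -0.22 (3D replicate 2 out) to 0.47 (2D replicate 3 out), also below 0 with the first 2D library out (-0.06) or the second (-0.10), and that of MBTPS1 from -0.019 (2D replicate 2 out) to 0.119 (2D replicate 3 out).

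With each library left out in turn, 15 to 20 of the 31 genes were higher and 0 to 3 lower, 0 to 1 control genes lower, 1 to 3 transport genes higher and 0 to 2 lower, and over all genes 534 to 3526 were higher and 656 to 3585 lower. The lowest whole-table counts came without 3D replicate 3 and the highest without 2D replicate 3. The causes were not tested. With TCACNCCAC in place of TCACNCCA, 1 of the 28 genes held the motif.

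Same-numbered libraries did not deviate together (correlations of -0.08, -0.14 and 0.04 across genes), and those of different number ran from -0.10 to 0.18. With 3 libraries per culture, this cannot tell whether the numbers pair the samples. With the replicate block 19 of the 31 genes were higher and 3 lower, as without it, and 1748 genes were higher and 1474 lower overall. CYP51A1 and FDFT1 had the fewest reads of the 31 genes (1521 and 1523 over the 6 libraries), which limits counting precision there.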
